A study of Mus musculus with 6 samples.

Results

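MicroRNA precursor genes were examined in RNA recovered with Staufen2 from mouse podocytes. They were taken as the genes whose symbol begins with Mir or Mirlet7, followed only by digits, lower-case letters and hyphens, and does not end in hg, the ending of host transcripts. Of 19938 genes with a probe set listed under 1 symbol, 298 matched. RefSeq lists 296 of these as microRNA genes and 2, Mirt1 and Mirt2, as long noncoding RNA genes, which were kept because the symbol rule includes them. Most of the 298 gave low signal in both kinds of RNA and differed little between them. The probe sets of Mir568 (higher in the pulldown) and Mir692-1 (lower) had the largest differences, and both were also the brightest of the set. Whether they read transcripts of other genes, Zbtb20 and the ferritin gene Ftl1, was not tested, so both values are uncertain.

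The cells were a conditionally immortalized mouse podocyte line, differentiated in culture by a shift to 37°C without gamma-interferon. Podocytes are the epithelial cells that form the filtration slits of the kidney glomerulus. There were 3 arrays of RNA co-precipitated with a Staufen2 antibody from cytoplasmic lysate and 3 arrays of input RNA from the same cell line, with no genetic change or drug treatment named for either group. Each array was made from 100 ng of RNA, so a value describes a share of the RNA and not an amount.

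A microRNA is cut from a longer primary transcript. In the nucleus Drosha and its partner Dgcr8 release a hairpin, Xpo5 carries the hairpin to the cytoplasm, and Dicer1 trims it to a short duplex, of which 1 strand is loaded into an Argonaute protein. Many microRNA genes lie in introns of protein-coding or noncoding host genes, and others lie in clusters that are transcribed together. Staufen2 binds double-stranded RNA, and a microRNA hairpin is a short double-stranded stem, which is why the class is of interest in this pulldown. The probe sets are annotated to the microRNA gene, and their probe sequences were not available here. Primary transcript, hairpin and mature microRNA cannot be told apart by them. In these bulk samples a difference in the share of an RNA recovered within cells and a difference between the cells that hold it cannot be told apart either.

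The hairpins of the 2 members with the largest differences are shown from RefSeq (GRCm38.p6), 5′ to 3′, with the annotated mature microRNA in capitals. The Mir568 hairpin lies at chr16:43640655-43640737 on the + strand and the Mir692-1 hairpin at chr17:6895229-6895337 on the - strand. Mir568 is poor in G and C (31.3%), with 81.9% of its 83 bases paired in the predicted fold of minimum free energy (-31.9 kcal/mol). Mir692-1 has 62.4% G and C, and 66.1% of its 109 bases are paired (-41.4 kcal/mol).
Mir568: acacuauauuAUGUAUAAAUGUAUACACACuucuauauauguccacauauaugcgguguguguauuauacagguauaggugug
Mir692-1: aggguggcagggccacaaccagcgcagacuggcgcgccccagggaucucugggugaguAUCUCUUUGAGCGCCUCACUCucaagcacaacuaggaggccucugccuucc

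The mature microRNAs of called genes whose brighter group exceeded the median probe set are shown with the seed, bases 2 to 8, in capitals, because the seed sets which mRNAs a microRNA can pair with. They come from RefSeq (GRCm38.p6) in the arms listed there, for 11 of the 14 such genes.
Mir568 mature (chr16:43640665-43640684, + strand): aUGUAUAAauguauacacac
Mir692-1 mature (chr17:6895259-6895279, - strand): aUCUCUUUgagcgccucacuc
Mir6516 5p (chr11:117077370-117077391, + strand): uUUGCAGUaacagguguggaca
Mir6516 3p (chr11:117077412-117077433, + strand): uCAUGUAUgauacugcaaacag
Mir345 5p (chr12:108836989-108837010, + strand): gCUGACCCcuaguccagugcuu
Mir345 3p (chr12:108837027-108837048, + strand): cCUGAACUaggggucuggagac
Mir150 3p (chr7:45121798-45121819, + strand): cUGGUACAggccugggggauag
Mir455 5p (chr4:63256867-63256888, + strand): uAUGUGCCuuuggacuacaucg
Mir455 3p (chr4:63256904-63256924, + strand): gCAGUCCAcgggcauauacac
Mir219a-2 5p (chr2:29845689-29845709, - strand): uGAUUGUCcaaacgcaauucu
Mir134 5p (chr12:109734145-109734166, + strand): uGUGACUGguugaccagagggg
Mir134 3p (chr12:109734184-109734203, + strand): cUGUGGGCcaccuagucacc
Mir551b 5p (chr3:29416840-29416862, + strand): gAAAUCAAgcuugggugagaccu
Mir551b 3p (chr3:29416879-29416899, + strand): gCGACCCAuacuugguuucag
Mir296 5p (chr2:174267093-174267113, - strand): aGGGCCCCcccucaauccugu
Mir296 3p (chr2:174267058-174267079, - strand): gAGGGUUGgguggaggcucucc
Mir138-2 5p (chr8:94324312-94324334, + strand): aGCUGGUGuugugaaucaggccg
Mir138-2 3p (chr8:94324359-94324379, + strand): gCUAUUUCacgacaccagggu

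No 2 of these genes share a seed. Over the 498 mature sequences of the 270 members used for this comparison there were 390 distinct seeds, of which 67 occurred in 2 or more members. Among all genes past the test only the copies Mir196a-1 and Mir196a-2 shared one, that of the 5p arm they have in common, and they went in opposite directions.
Mir196a-1 5p (chr11:96265187-96265208, + strand): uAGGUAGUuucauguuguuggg
Mir196a-2 5p (chr15:102973365-102973386, + strand): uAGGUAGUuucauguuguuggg

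The arrays were alike within a group, with Pearson correlations over all probe sets of 0.998 to 0.999 within groups and 0.982 to 0.983 between pulldown and input arrays. Array medians were 6.53 to 6.54 (log2 RMA value). Of 17 podocyte markers 14 were measured, and 8 of these were brighter than the median probe set. Wt1 (9.91 in the pulldown and 9.57 in the input) and Synpo (8.77 and 8.29) were among these 8, while Nphs1 (6.38 and 6.30), Ptpro, Podxl and Tcf21 were not. The mean level over the measured podocyte markers was 8.57 to 8.58 in pulldown arrays and 8.37 to 8.38 in input arrays. It was 9.83 to 9.93 and 9.53 to 9.57 for 7 mesangial and fibroblast markers, with Acta2 at 13.57 in both, and 6.52 to 6.55 and 6.42 to 6.44 for 7 endothelial markers. For 8 tubular and parietal markers it was 7.92 to 7.96 and 7.84 to 7.90, and for 6 immune markers 6.17 to 6.21 and 6.29 to 6.32. Their part in the microRNA values was not tested. Nothing in the labels says that the replicates were grown separately. The p-values therefore measure the spread between these arrays, which may be technical, and 3 arrays a group set the precision.

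The first question was how much signal microRNA precursor genes gave at all. Few rose above the middle of the array. The median of all probe sets was 6.54, and 55 of 298 members (18.5%) had a mean over the 6 arrays above it, against 60.2% of all genes. The median member stood at 5.02 in the pulldown and 5.05 in the input, while the median gene stood at 7.53 and 7.48. No detection call was given, so for the 243 members below it, signal and background cannot be told apart. For the 55 above it, the level alone does not separate them either.

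The level differed little between arrays. In each pulldown array 56 or 57 members exceeded the median probe set, against 53, 54 and 56 in the input arrays. The dimmest member, Mir376c, averaged 4.03 and the brightest, Mir692-1, 9.59, which is brighter than 71.4% of all genes. Small nucleolar and Cajal body RNA genes, another class of short structured RNA, were measured by 54 probe sets, of which 21 (38.9%) lay above the median, at a median level of 6.12.

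**Figure D1:**
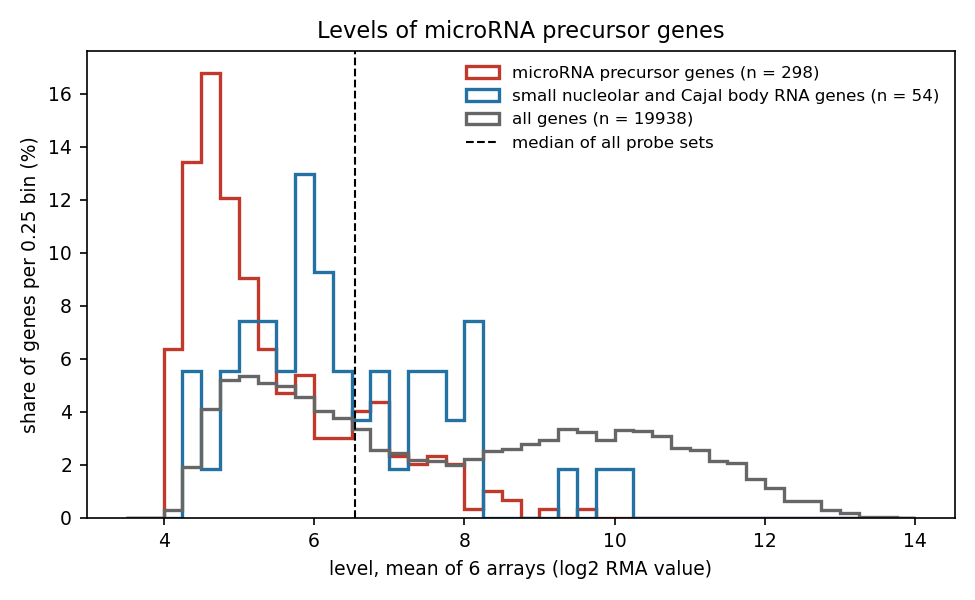
Share of genes (%) in bins of 0.25 by level, the mean log2 RMA value of 6 arrays, for microRNA precursor genes, small nucleolar and Cajal body RNA genes and all genes. Most of the 298 microRNA precursor genes lie left of the dashed line, the median of all probe sets (6.54), with a median of 5.05.

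Levels followed the base composition of the hairpin. Across the 258 members with a RefSeq hairpin, the Spearman correlation of G and C content with level was 0.826, a description over genes that share the same 6 arrays. Hairpins with 40% G and C or less had a median level of 4.32 (n = 39), those from 40% to 50% 4.74 (n = 117), those from 50% to 60% 5.82 (n = 78) and those over 60% 7.04 (n = 24). Of the 24 with the most G and C, 19 exceeded the median probe set, and of the 39 with the least, 1 did. That 1 was Mir568, at 9.16. How much of a level comes from background that goes with G and C content was not tested. The share of paired bases in the predicted fold went little with level (correlation -0.106), and free energy per base more (correlation -0.388), lower energy going with higher level.

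The relation of these features with the pulldown difference was weaker. The Spearman correlation was 0.290 for G and C content, -0.191 for free energy per base, 0.0469 for hairpin length and 0.0522 for the share of paired bases, each over 258 genes. The share of paired bases had a median of 70.9% in 13 members higher in the pulldown and 66.1% in 13 lower, against 73.6% in members that did not pass.

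**Figure D2:**
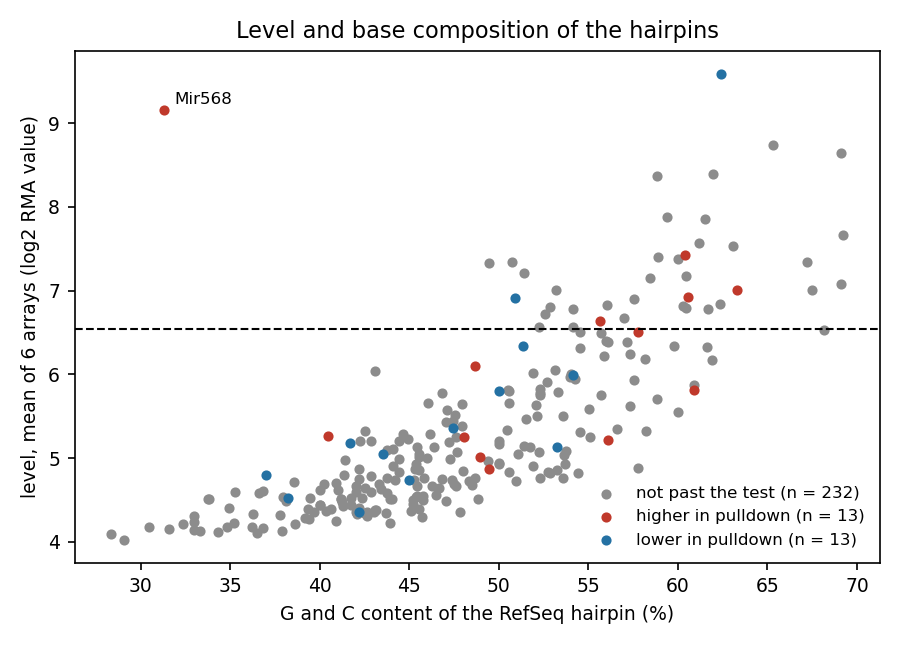
Level (mean log2 RMA value of 6 arrays) against the G and C content of the RefSeq hairpin (%) for 258 microRNA precursor genes, coloured by the outcome of the test. Levels climb with G and C content, and Mir568, at 31.3% and 9.16, stands apart from the other hairpins poor in G and C. The dashed line is the median of all probe sets.

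The second question was which members made up a larger or smaller share of the pulldown RNA than of the input. By limma's moderated test over all 19938 genes, called at an adjusted p under 0.05, 18 of 298 members were higher, 17 lower and 263 did not pass. Of all genes 48.7% were called, 31.3% higher and 17.3% lower, and of the members 11.7%. The median member difference, pulldown minus input on the log2 scale, was 0.00051 (quartiles -0.05 and 0.04), beside 0.04 over all genes. Differences under 0.1 in size were found for 244 members (81.9%) and for 45.6% of all genes. Among those no brighter than the median probe set, the shares were close, 85.2% of 243 members and 79.8% of 7937 genes. Without Mirt1 and Mirt2 the counts were 17 higher and 17 lower of 296.

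Since most members were dim, their calls were set beside genes of like level. Of 243 members no brighter than the median probe set 22 were called (9.05%), 8 higher and 14 lower. Of the 7937 genes in that range 12.3% were called, 731 higher and 243 lower. Of 55 members above the median probe set 13 were called (23.6%), 10 higher and 3 lower, beside 72.8% of 12001 genes. Bright members were less bright than bright genes, with a median level of 7.21 against 9.47, so narrower ranges were compared too.

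Below a level of 7 the shares were close from 4 to 5 and from 6 to 7, and larger in members from 5 to 6. From 4 to 5, 3.45% of members and 4.02% of genes were called, from 5 to 6, 14 of 76 (18.4%) and 12.4%, and from 6 to 7, 11 of 43 (25.6%) and 28.4%. From 7 to 8 the shares were apart, with 3 of 26 members (11.5%) and 54.9% of 1744 genes, and the median size of the difference was 0.06 in these members and 0.17 in these genes. From 8 to 10 there were only 8 members, of which 2 were called, beside 77.3% of genes. These are descriptions, and no test of the set was made. Small nucleolar and Cajal body RNA genes gave another picture, with 47 of 54 lower, none higher and a median of -0.93.

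**Figure D3:**
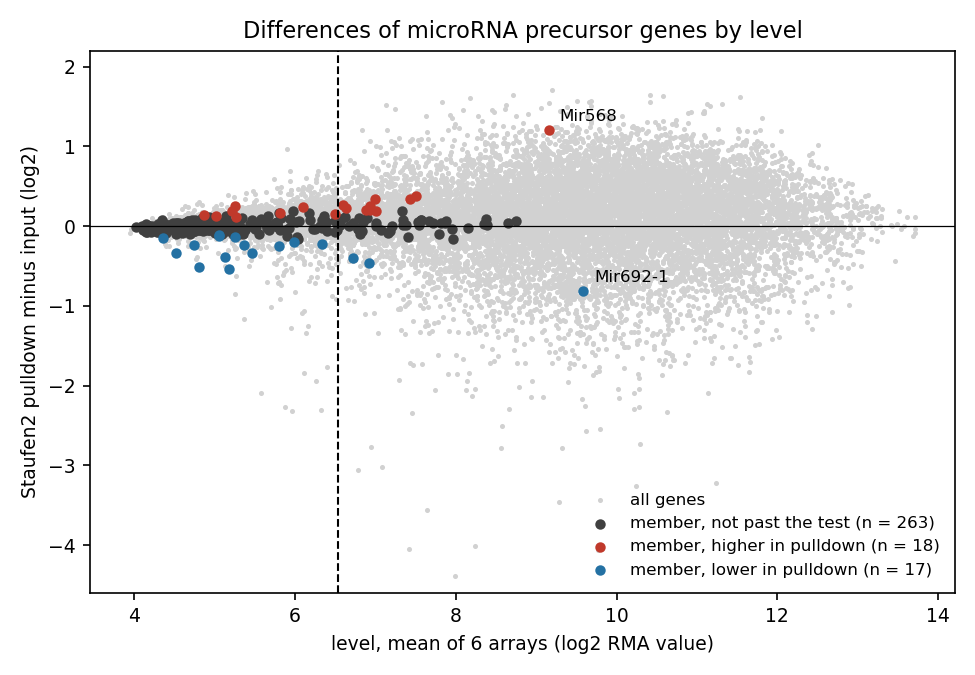
Difference of Staufen2 pulldown minus input (log2) against level (mean log2 RMA value of 6 arrays), for all genes in grey and the 298 microRNA precursor genes by outcome of the test. The members lie near 0 and mostly left of the dashed median of all probe sets, with Mir568 at 1.21 and Mir692-1 at -0.81 as the exceptions above a level of 8.

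Mir568 had log2 values of 9.69, 9.94 and 9.66 in the pulldown arrays, against 8.47, 8.65 and 8.54 in the input arrays. All 3 pulldown arrays lay above every input array. The difference was 1.21 ± 0.082 (SE), with a 95% interval of 1.02 to 1.40, or 2.31-fold higher (limma adjusted p = 9.5e-06). It was the only member at least 2-fold different among those called, beside 3.67% of all genes.

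The gene lies just past the annotated end of Zbtb20 on the same strand and within the span of Tigit on the opposite strand. Zbtb20 encodes a zinc finger transcriptional repressor. Its brighter probe set had values of 12.42, 12.59 and 12.48 in the pulldown, against 11.06, 11.18 and 11.16 in the input, a difference of 1.36 ± 0.054 (SE, adjusted p = 8.0e-07), and its other probe set differed by 0.99 ± 0.031. Tigit, an inhibitory receptor of lymphocytes, stood at 7.30, 7.27 and 7.28 in the pulldown, against 7.28, 7.31 and 7.28 in the input, and did not pass (-0.01, adjusted p = 0.81). Mir568 and its upstream neighbour on the same strand were thus both higher, at different levels, and whether its probe set reads an extended Zbtb20 transcript was not tested.

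Mir692-1 had values of 9.20, 9.33 and 9.02 in the pulldown arrays, against 9.97, 10.01 and 10.00 in the input arrays, without overlap. The difference was -0.81 ± 0.071 (SE), a 95% interval of -0.97 to -0.64, or 1.75-fold lower (adjusted p = 3.8e-05). No gene of the reference table spans it. Other Mir692 copies are listed only on probe sets shared with Ftl1, the ferritin light chain, so their signal belongs to no single gene. These 4 shared probe sets had levels of 11.49 to 12.76 and differences of -0.65 to -0.59. Ftl1's own probe set averaged 12.34 ± 0.046 in the pulldown and 13.01 ± 0.0087 in the input (SD, n = 3 each; -0.66 ± 0.032, adjusted p = 1.7e-06). Whether the Mir692-1 probe set takes up ferritin sequence was not tested, and its value is uncertain for that reason.

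**Figure D4:**
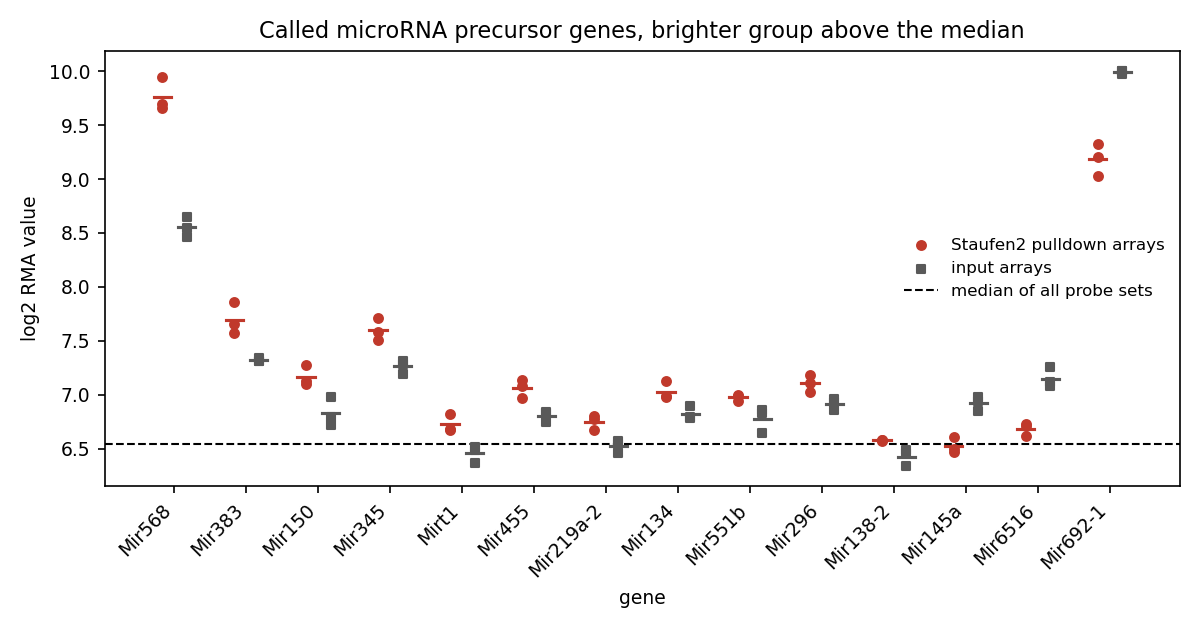
Log2 RMA value in each of 3 Staufen2 pulldown arrays (circles) and 3 input arrays (squares) of the 14 called microRNA precursor genes whose brighter group exceeded the median of all probe sets, ordered by difference, with bars at the group means and a dashed line at that median (6.54). Mir568 and Mir692-1 stand above the rest and have the widest gaps between groups.

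Lower as well were Mir6516 and Mir145a. Mir6516 lies within Snhg20, a transcript that hosts a small nucleolar RNA and was not measured by a probe set of its own here. Its values were 6.73, 6.62 and 6.71 in the pulldown, against 7.25, 7.12 and 7.08 in the input (-0.46 ± 0.054 SE, adjusted p = 0.00019). Mir145a, with Mir143 the microRNA pair known from smooth muscle, had values of 6.47 to 6.61 in the pulldown, against 6.85, 6.94 and 6.98 in the input (-0.40 ± 0.050, adjusted p = 0.00031). Both pulldown groups lay wholly below their input groups, and Mir145a lay next to the median of all probe sets. Mir143, its neighbour, averaged 6.54 in the pulldown and 6.52 in the input, and did not pass (0.01, adjusted p = 0.81).

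Besides Mir568, 10 called members higher in the pulldown had a pulldown mean above the median probe set. They include Mir138-2, whose mean over all 6 arrays lay below it. Their differences were small, from 0.15 to 0.37, and all lay below a level of 8. The largest was that of Mir383, with values of 7.65, 7.86 and 7.57 in the pulldown, against 7.31, 7.31 and 7.35 in the input (0.37 ± 0.070 SE, adjusted p = 0.0030). Mir150, known for its part in lymphocyte development, had 7.27, 7.13 and 7.10, against 6.72, 6.98 and 6.80 in the input (0.34 ± 0.074, adjusted p = 0.0066). Mir345 had 7.51, 7.71 and 7.59 in the pulldown, against 7.19, 7.31 and 7.28 in the input (0.34 ± 0.057, adjusted p = 0.0016). In each of these the pulldown arrays all exceeded the input arrays, by a margin that was smallest in Mir150.

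Mir455, which lies in the collagen gene Col27a1 and is known from cartilage, had 6.97, 7.14 and 7.08 in the pulldown, against 6.84, 6.83 and 6.75 in the input (0.26 ± 0.049, adjusted p = 0.0033). Col27a1 itself did not pass (0.06, adjusted p = 0.19). Mir219a-2, known from oligodendrocyte differentiation, averaged 6.75 ± 0.065 in the pulldown and 6.53 ± 0.061 in the input (SD, n = 3 each, adjusted p = 0.0042). Mir134, a brain microRNA known from dendritic spines, averaged 7.03 ± 0.082 and 6.82 ± 0.060 in the same order (adjusted p = 0.011). In these genes the difference exceeded the range of either group. Mirt1, the long noncoding gene, averaged 6.73 ± 0.086 in the pulldown and 6.46 ± 0.077 in the input (adjusted p = 0.0045), and its dimmer probe set differed by 0.18.

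The calls of the last 3 were lost when 1 array was left out. Mir551b differed by 0.20 (adjusted p = 0.021), but by 0.19 (adjusted p = 0.074 and 0.073) without the second or the third pulldown array. Mir296, known from angiogenesis, differed by 0.19 (adjusted p = 0.013), and by 0.16 (adjusted p = 0.054) without the first input array. Mir138-2, which lies in the nucleoporin gene Nup93, differed by 0.15 (adjusted p = 0.021), and its adjusted p was 0.055 to 0.068 without any 1 of the pulldown arrays.

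Most of the 10 brightest members did not pass the test. Mir346, Mir210, Mir667, Mir139, Mir328, Mir666, Mir598 and Mir187 stood with Mir692-1 and Mir568 at the top, and none of these 8 was called. Mir210, the microRNA known from the response to low oxygen, averaged 8.67 ± 0.030 in the pulldown and 8.63 ± 0.028 in the input, a difference of 0.04 with a 95% interval of -0.03 to 0.11. Mir346 averaged 8.78 ± 0.034 and 8.71 ± 0.047, with an interval of -0.02 to 0.15. Mir598 came nearest to the threshold, at 7.89 ± 0.14 in the pulldown and 8.05 ± 0.044 in the input (adjusted p = 0.081), and without the second pulldown array it stood at -0.23 (adjusted p = 0.012). For the other 7, every 95% interval stayed within 0.27 of 0.

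A further 21 called members were dimmer than the median probe set in both groups. Of these 7 were higher, by 0.11 to 0.26, and 14 lower, with differences of -0.54 to -0.12. The higher ones were Mir9-1, Mir532, Mir30c-1, Mir681, Mir130b, Mir679 and Mir196a-1. The lower ones were Mir7-1, Mir1839, Mir125b-1, Mir15a, Mir687, Mir31, Mir181b-1, Mir677, Mir423, Mir697, Mir701, Mir505, Mir122 and Mir196a-2. Adjusted p lay between 5.5e-05 and 0.045. Of the 7937 genes with a mean no brighter than the median probe set, 731 were higher and 243 lower.

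Mir7-1 had the largest difference of these, with 4.85, 4.97 and 4.91 in the pulldown, against 5.43, 5.38 and 5.54 in the input (-0.54 ± 0.050 SE, adjusted p = 5.5e-05). Mir122, the abundant microRNA of liver, had 5.04, 5.00 and 4.94 in the pulldown, against 5.12, 5.13 and 5.12 in the input. Its groups did not overlap although its level was far below the middle of the array. Mir1839 averaged 4.55 in the pulldown and 5.06 in the input, and 1 of its input arrays (5.33) stood well above the others (4.93 and 4.91).

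Copies of a microRNA gene offered a comparison of hairpins with the same product. RefSeq gives an identical mature sequence for 45 members in 22 groups of copies. In 8 groups at least 1 copy was called, and in 1 group, Mir196a, both were. Of all members 11.7% were called, and of all genes 48.7%. Mir196a-1 averaged 5.38 in the pulldown and 5.13 in the input (0.26, adjusted p = 0.00049), and Mir196a-2 averaged 4.99 and 5.11 (-0.12, adjusted p = 0.0059). Both copies lie in Hox clusters and both were dim.

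In the other 7 groups 1 copy passed and its partner did not. Mir7-1 was lower by 0.54 in size, and Mir7-2 stood at -0.05 (adjusted p = 0.42). For Mir125b the first copy stood at -0.39 (adjusted p = 0.00021) and the second at -0.02 (adjusted p = 0.66). Mir219a-2 stood at 0.22 and Mir219a-1, at 7.05 in the pulldown and 7.10 in the input, at -0.05 (adjusted p = 0.38). Mir30c-2 (-0.08) and Mir9-3 (-0.05) likewise had the opposite sign to the called copy. In Mir181b and Mir138 both copies had the same sign, with Mir181b-1 at -0.24 and Mir181b-2 at -0.09 (adjusted p = 0.16), and Mir138-2 at 0.15 and Mir138-1 at 0.07 (adjusted p = 0.41). Except in Mir219a, both copies of each of these groups were dimmer than the median probe set, where signal and background cannot be told apart. The differences between copies were not tested.

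Clusters gave a second comparison within the class. Members less than 10 kb apart formed 47 groups that held 147 members, and 8 of these groups held a called member. The largest, from Mir379 to Mir369 within the imprinted Dlk1 to Dio3 region of chromosome 12, had 30 measured members, with a median difference of -0.02, and 28 did not pass. Mir134 and Mir679 were the 2 called, both higher, by 0.21 and 0.24. In the same group Mir667 and Mir666, at levels of 8.39 and 8.16 differed by 0.01 and -0.02. This was the only group with more than 1 called member. In the Mir17 cluster all 5 measured members and its host transcript Mir17hg (4.84 in the pulldown and 4.82 in the input) were dim and did not pass. Of the 151 members not in a group 26 were called, and of the 147 in groups 9. Of all members 11.7% were called, and of all genes 48.7%. These shares were not matched for level.

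Host genes were compared with the microRNA genes inside them. A host on the same strand was found for 131 of 272 members with a known strand, and 76 measured hosts held 96 members. Hosts were brighter, with a median level of 8.16 against 5.19, and 27 hosts were higher in the pulldown, 13 lower and 36 did not pass, shares near the 31.3% and 17.3% of all genes. Of 32 members in a higher host 3 were higher, 1 lower and 28 did not pass, and of 20 in a lower host 2 were higher, 3 lower and 15 did not pass. The Spearman correlation between member and host differences was -0.072 over 97 pairs, which share arrays and in some cases a host.

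In the hosts with the largest differences the members stayed near 0. Ttc28 was higher by 1.51 ± 0.039 (SE) while Mir701 inside it stood at -0.15. Huwe1, a large ubiquitin ligase, was higher by 1.21 ± 0.027, and Mir98 and Mirlet7f-2 inside it stood at 0.01 and -0.06. Nexmif was higher by 1.29 and its Mir672 stood at -0.02. Copz2, a coatomer subunit, was lower, at -1.33 ± 0.056, and Mir152 inside it stood at 0.07 (adjusted p = 0.051). Of the 5 members in hosts that differed at least 2-fold, 1 passed the test, in the direction opposite to its host. All 5 were dimmer than the median probe set, at levels of 4.35 to 6.33, where signal and background cannot be told apart.

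Some pairs went the same way. Mir125b-1 (-0.39) lies in Mir100hg, which was also lower, with 7.39, 7.54 and 7.48 in the pulldown, against 7.87, 8.07 and 7.85 in the input (-0.46 ± 0.067, adjusted p = 0.00072). Mir423 (-0.22) lies in Nsrp1 (-0.30), and Mir677 (-0.24) in Atp5b, the beta subunit of ATP synthase (-0.14). Mir138-2 (0.15) and Nup93 (0.23) were both higher. Opposite directions were found for Mir30c-1 (0.14) in Nfyc (-0.34) and for Mir130b (0.18) in 2610318N02Rik (-0.59).

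**Figure D5:**
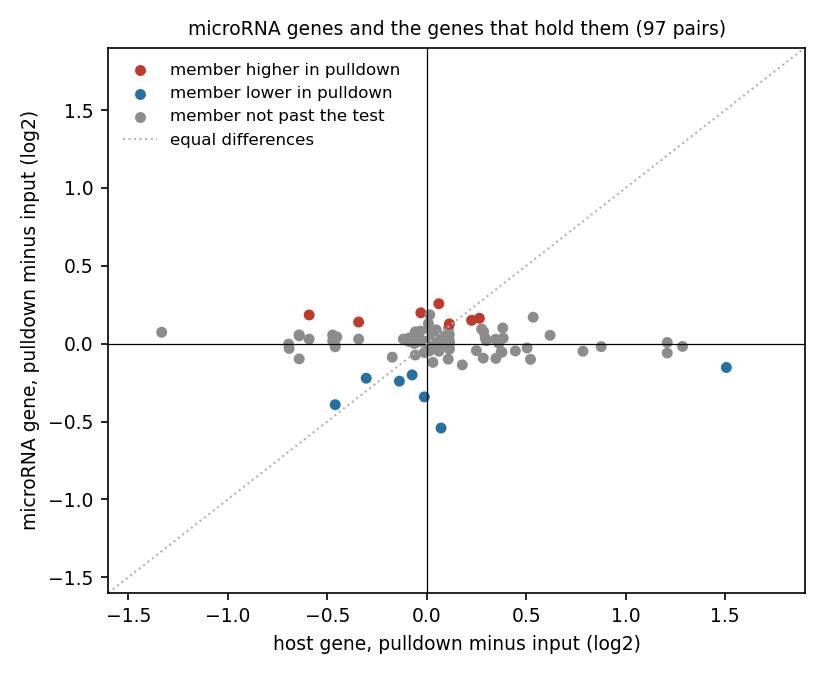
Pulldown minus input (log2) of microRNA genes against that of the same-strand genes that hold them, for 97 pairs, coloured by the member's outcome. Points spread along the host axis from -1.33 to 1.51 but stay near 0 on the member axis, away from the dotted line of equal differences.

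Families followed in kidney and podocyte studies were mostly dim. In the 16 families listed, 65 members were measured, of which 13 were brighter than the median probe set. The test called 1 higher and 3 lower, with 61 short of the threshold and a median of -0.0026. The share called was 11.7% over all members, 12.3% over genes no brighter than the median probe set and 72.8% over brighter genes. The 9 let-7 genes, regulators of growth and differentiation, all missed the threshold, with differences of -0.10 to 0.06 at a median level of 5.07. Of 6 Mir30 genes, a family abundant in podocytes, only Mir30c-1 passed. Among 14 genes of the Mir17 to Mir92 clusters and their paralogs none did (-0.07 to 0.08), nor did any of 4 in the Mir200 group (0.01 to 0.12) or 4 in the Mir192 group (0.03 to 0.11). Mir15a and Mir181b-1 account for the other 2 lower calls beside Mir145a. No single-symbol probe set was listed for Mir21.

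The mRNAs of genes that make and use microRNAs were bright and mostly higher in the pulldown. Of 28 measured genes of the processing and silencing list 22 were higher, 3 lower and 3 did not pass, with a median of 0.59. Of these 28, 27 lay above the median level, where 72.8% of all genes were called, 5515 of 12001 higher and 3216 lower. Dicer1 averaged 12.22 ± 0.022 in the pulldown and 11.02 ± 0.028 in the input (SD, n = 3 each, limma adjusted p = 2.2e-07). Drosha differed by 0.73, Dgcr8 by 0.69 and Xpo5 by 0.54. The Argonautes Ago3, Ago1, Ago2 and Ago4 differed by 1.09, 0.72, 0.71 and 0.23. The 3 lower genes were Prkra (-1.10) and Tarbp2 (-0.39), the double-stranded RNA-binding partners of Dicer, and Ran (-0.19), the GTPase that works with Xpo5. These mRNAs lay far above the microRNA genes in level, and across genes a level also depends on the probes.

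Some microRNAs are listed on probe sets together with other genes and were not counted as members. There were 61 such probe sets, of which 11 were lower, 5 of them at least 2-fold, and none higher, beside 17.3% of all genes lower and 31.3% higher. All 11 were among the 32 shared with another kind of gene, which include small nucleolar RNAs and mRNAs. Of the 29 shared only among microRNAs none passed, with differences of -0.13 to 0.13, and all of them were no brighter than the median probe set.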

How the data were processed

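The data were 6 arrays, 3 of RNA co-precipitated with Staufen2 and 3 of input RNA. The authors deposited RMA values on the log2 scale, 1 per probe set and array. RMA and limma are named in the submitters' processing notes, and their versions are not given in the sources used here. The table held 35556 probe sets, of which 21789 have 1 symbol in the platform annotation. The brightest single-symbol probe set over 6 arrays stood for each gene. The 298 members had 301 such probe sets. All were matched by Entrez identifier to RefSeq (GRCm38.p6), 258 with a hairpin sequence and 270 with a mature one. Mature sequences of the 8 members on chromosome 18 were not used.

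Differences were fitted over all 19938 genes with limma 3.58.1 in R 4.3.3 (lmFit and eBayes, 2-sided, no covariates), with Benjamini-Hochberg adjustment over all genes. SEs are moderated. An exact test of 3 against 3 arrays cannot go below a p of 0.1. Hairpins were folded with RNAfold 2.7.2. Hosts are protein-coding or long noncoding genes on the same strand whose span holds the member. Same-numbered arrays did not vary together (correlations of deviations 0.02, 0.11 and -0.06), so numbers were not used as pairs.

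Named with values were called members whose brighter group exceeded the median probe set, the 10 brightest members, listed kidney families, hosts, neighbours and copies. Members, lists and rules were chosen with earlier results of these data known. Which copies, hosts, clusters and neighbours to describe was decided after their values were seen. Figures were drawn with matplotlib 3.10.9. A control-antibody precipitation was not analysed here, so binding to beads or antibody was not measured.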

Additional observations from a re-analysis of the deposited data

How the results depend on the processing

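The counts of 18 members higher and 17 lower stayed within 1.5 times under the replicate block (20 and 14), an intensity trend, cyclic loess (16 and 24), centring, array weights, averaged probe sets and each probe set on its own. With dim genes left out, 57 members were tested and 11 were higher and 4 lower, beside 9133 of 12156 genes called. A gene stayed in if its brighter group exceeded the median probe set, so some members entered only through that group. Against a 1.2-fold change (treat) 1 was higher, 3 were lower and 4856 of all genes were called, in place of 9705. The unmoderated statistic gave 10 higher and 13 lower, with 8406 of all genes called. Under the replicate block 9714 of all genes were called, and after cyclic loess 9692. Leaving out 1 array at a time gave 13 to 18 higher, 15 to 20 lower, 8873 to 9288 of all genes called and 55 to 56 members above the median. The median difference of all genes was 0.04 as deposited and 0.02 after cyclic loess. Of 224 repeats for the 14 called members whose brighter group exceeded the median probe set, 201 kept the call, 23 lost it and none changed sign. Mir138-2 also lost its call after cyclic loess (0.11, adjusted p = 0.070). Among uncalled bright members, signs turned after cyclic loess for Mir346 (-0.0324), Mir210 (-0.0537), Mir667 (-0.0737) and Mir328 (-0.0619). With 1 array left out, values ranged from -0.00595 to 0.0348 for Mir667, -0.0145 to 0.0554 for Mir328, -0.0362 to 0.0150 for Mir666 and -0.0768 to 0.0121 for Mir187. The cause was not tested. Mir598 was called in 4 repeats, with differences of -0.24 to -0.16. Signal near background limits what any of these values says.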
